A study of Mus musculus with 8 samples.

Results

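Genes of bone morphogenetic protein (BMP) signalling were examined in intestinal epithelial cells (IECs) of mice with and without CD1d. They were 10 genes chosen by symbol: the ligand Bmp2, the receptors Bmpr1a and Bmpr2, the pathway SMAD Smad9, the inhibitory SMADs Smad6 and Smad7, and the target genes Id1, Id2, Id3 and Klf4. No measured value entered the rule, but earlier results of these data were known when the genes were chosen. All 10 were found among the 25239 genes of the deposited table, and all 10 were among the 15446 genes that received a test. Bulk RNA-seq was performed on 4 CD1d-KO and 4 wild-type (WT) samples, and the design compared the genotypes to ask how loss of CD1d, and of the natural killer T (NKT) cells that depend on it, alters the epithelial transcriptome. The CD1d-KO group carried the genotype CD1d1/2 KO, a germline deletion spanning Cd1d2 and Cd1d1 that is present in every cell of the animal, so loss of CD1d in the epithelium and loss of NKT cells cannot be told apart in these samples. The WT group was C57BL/6Jax. The paper states that the mice of its experiments were not littermates, which may have affected their microbiota. Differences of colony or microbiota therefore cannot be told apart from genotype in these samples either. Mice of both genotypes were untreated, aged 7 to 10 weeks and kept free of specific pathogens, and the methods state males and females matched between genotypes, whereas the libraries of CD1d-KO 1 and 2 alone held Y-linked counts. Each sample held 150000 cells sorted from crypt preparations of the proximal small intestine as live EpCAM+ cells negative for CD45, CD31 and Ter119. The samples came from 2 individual experiments, and because the labels do not tie a sample to an experiment, within-experiment values could not be given.

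BMPs are secreted ligands that bring type I receptors such as BMPR1A and type II receptors such as BMPR2 together at the cell surface, after which the type I receptor phosphorylates SMAD1, SMAD5 and SMAD9. These SMADs enter the nucleus with SMAD4 and act on target genes, among them the Id genes and, as feedback inhibitors, Smad6 and Smad7. In the small intestine BMP activity is known to rise from crypt to villus, where it restrains stem cell expansion and favours differentiation, while stromal antagonists shield the crypt base.

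The libraries held 23610266 to 31629435 counts. For Cd1d1, the targeted gene, samples 1 to 4 of CD1d-KO held 8, 3, 5 and 0 raw counts, whereas WT 1 to 4 held 81, 70, 94 and 50. Markers of the intestinal epithelium summed to 340040 to 367850 normalised counts in CD1d-KO and 330840 to 369870 in WT, with 0 of 10 called by DESeq2 and 0 at an unadjusted p under 0.05. Of 10 stromal markers, 9 never reached 10 normalised counts, as was true of 5 of 8 endothelial markers, and all 5 erythroid markers were at 0. Of 10 leukocyte markers, 4 were lower in CD1d-KO (Cd3g, Cd8a, Jchain and Itgam), and their sums were 870 to 1068 in CD1d-KO and 1108 to 2210 in WT. Of 12 genes of stomach and Brunner's glands, 6 were lower in CD1d-KO, with sums of 956 to 1783 in CD1d-KO and 2723 to 16780 in WT, WT 3 and WT 4 being the highest. Of 8 goblet cell markers and 12 immediate early genes, DESeq2 called 0, with 0 at an unadjusted p under 0.05. Y-linked genes summed to 6235 and 7293 raw counts in CD1d-KO 1 and 2 and to at most 1 in each of the other libraries. Xist, which is transcribed from the inactive X chromosome, had 76 and 53 raw counts in CD1d-KO 1 and 2 and 22491 to 36875 in CD1d-KO 3 and 4 and all 4 WT libraries. The sexes were therefore not balanced: the WT libraries were all of the female pattern, and fits without CD1d-KO 1 and 2 are given for the genes called. In bulk samples fewer cells of a type and less RNA per cell cannot be told apart.

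Among the 10 genes, 1 passed the DESeq2 test at an adjusted p under 0.05: Id3 was lower in CD1d-KO IECs, at 0.822 times the WT level. Across all genes tested, 4.03% were called in either direction and 2.38% were called lower. The median log2 fold change of the 10 genes was -0.14, compared with 0.000995 over all genes tested, with 7 estimates below 0 and 3 above. At an unadjusted p under 0.05 there were 4 of the 10 (Id3, Smad7, Bmp2 and Bmpr1a), against 15.3% of all genes. In Id3, Smad7 and Bmp2 every CD1d-KO sample lay below every WT sample, a separation in this direction that 5.52% of all genes showed. None of the 10 was separated in the other direction, which 4.09% of all genes were. The sum over the 10 genes was 14435 to 16047 normalised counts in CD1d-KO and 15123 to 16108 in WT, so the sums overlapped.

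**Figure D1:**
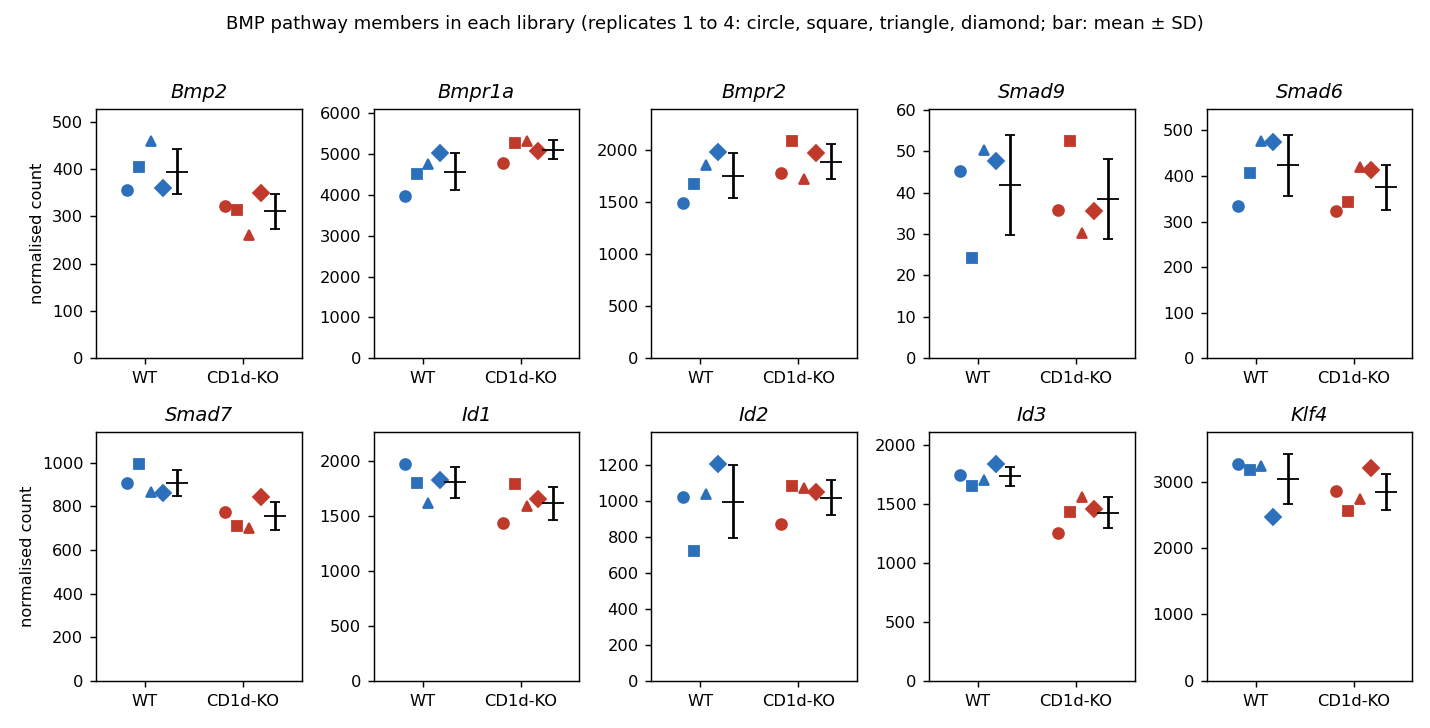
Normalised counts (vertical axes, from 0) of the 10 genes in each of the 4 WT (blue) and 4 CD1d-KO (red) samples, with the mean ± SD beside them. For Id3, Smad7 and Bmp2 all red points lie below all blue points, and for the other 7 genes the genotypes overlap.

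Levels were compared between genes per transcript length, as TPM, in which a count is divided by the gene's length and scaled to the same total in every library. In WT the order ran from Id3 at 151.6 ± 7.84 TPM (SD, n = 4) through Id1 at 129.2 ± 11.01, Klf4 at 82.95 ± 10.3, Bmpr1a at 69.4 ± 6.65 and Id2 at 65.3 ± 13.5 TPM. A lower tier followed, with Smad7 at 17.0 ± 1.07, Bmpr2 at 13.1 ± 1.598, Smad6 at 11.8 ± 1.86, Bmp2 at 9.20 ± 1.08 and Smad9 at 0.648 ± 0.188 TPM. The target genes and the type I receptor were thus the most abundant of the 10 per length, and Smad9 was by far the scarcest. Ranges over the WT samples overlapped between the neighbours Klf4 and Bmpr1a, Bmpr1a and Id2, Bmpr2 and Smad6, and Smad6 and Bmp2, and did not overlap between the other neighbours. In CD1d-KO Id3 (124.4 ± 8.65 TPM) and Id1 (115.6 ± 11.8 TPM) stayed on top, but their ranges overlapped, from 111.9 to 131.3 TPM for Id3 and from 104.8 to 131.8 TPM for Id1. Bmpr1a (77.57 ± 3.40 TPM) and Klf4 (77.56 ± 6.97 TPM) held the next places in CD1d-KO and also overlapped, as did Klf4 and Id2 (66.6 ± 6.05 TPM). Smad7 (14.17 ± 1.28 TPM) and Bmpr2 (14.16 ± 1.55 TPM) overlapped in CD1d-KO, whereas in WT Smad7 ranged from 16.2 to 18.4 TPM, above Bmpr2 at 11.3 to 14.9 TPM. The remaining order in CD1d-KO was that of WT, with Smad6 at 10.5 ± 1.08, Bmp2 at 7.26 ± 0.960 and Smad9 at 0.598 ± 0.164 TPM, and the neighbours not named did not overlap.

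**Figure D2:**
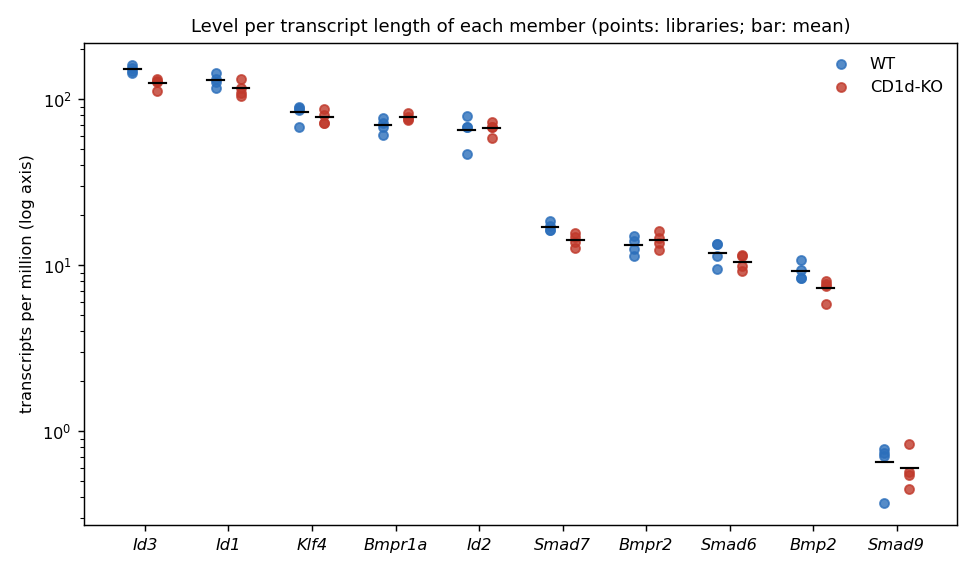
Level per transcript length of the 10 genes (vertical axis, TPM on a log axis) in WT (blue) and CD1d-KO (red) samples, 1 point per library, with a bar at the mean. Id3 is the highest in both genotypes (means 151.6 TPM in WT and 124.4 TPM in CD1d-KO), and Smad9 is the only gene below 1 TPM.

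Bmp2, the ligand of the set (chr2:133552159-133562896, plus strand, mm10), had 321, 312, 261 and 349 normalised counts in the CD1d-KO samples, given throughout in the order of their numbers, whereas the WT samples had 356, 405, 459 and 359. The genotypes did not overlap, but CD1d-KO 4 at 349 lay just below WT 1 at 356. The means were 311 ± 36.6 in CD1d-KO and 395 ± 47.9 in WT (SD, n = 4). Its log2 fold change was -0.35, with a 95% interval of -0.59 to -0.10, and Bmp2 was not called (DESeq2, unadjusted p = 0.0063, adjusted p = 0.103). With a score of the stomach genes as a covariate the estimate was -0.04 (DESeq2, adjusted p = 0.984). That score did not overlap between the genotypes (-3.23 to 0.27 in CD1d-KO and 0.99 to 3.99 in WT). Here and in the genes below, fits with this covariate could therefore hardly separate score from genotype.

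The receptors had positive estimates. Bmpr1a, the type I receptor through which BMP signals reach the intestinal epithelium (chr14:34411068-34502546, minus strand), reached 4796, 5273, 5316 and 5076 normalised counts in CD1d-KO, with 3985, 4514, 4765 and 5038 in WT. CD1d-KO 1 fell within the WT range, and WT 1 was the lowest sample. CD1d-KO exceeded WT by a log2 fold change of 0.16, and the 95% interval on the linear scale was 1.003 to 1.25 times the WT level, with no call over all genes (DESeq2, unadjusted p = 0.0437, adjusted p = 0.306). Without WT 1 the estimate was 0.10 (DESeq2, adjusted p = 0.616), and with the stomach covariate it was 0.29 (DESeq2, adjusted p = 0.547). Bmpr2, the type II partner that activates the type I receptor (chr1:59764279-59878081, plus strand), had 1780, 2081, 1716 and 1965 normalised counts in CD1d-KO and 1490, 1673, 1855 and 1983 in WT. The genotypes overlapped over most of their range, and the log2 fold change of 0.11 (95% interval -0.09 to 0.31) was not called (DESeq2, adjusted p = 0.706).

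Smad9 encodes the least abundant of the SMADs that BMP receptors phosphorylate (chr3:54755582-54801269, plus strand). The CD1d-KO samples held 40, 55, 31 and 37 raw counts of it, the WT samples 46, 23, 52 and 39. CD1d-KO 2 was the highest and WT 2 the lowest of the 8 samples, and the spread within each genotype, a coefficient of variation of 24.9% in CD1d-KO and 28.7% in WT, was the widest among the 10 genes. The estimate was a log2 fold change of -0.12 with a 95% interval of -0.72 to 0.48 (DESeq2, adjusted p = 0.932).

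The inhibitory SMADs both had negative estimates and neither was called. Smad7, which occupies activated receptors and recruits ubiquitin ligases to them, had 772, 711, 702 and 842 normalised counts in CD1d-KO and 908, 993, 868 and 861 in WT. The genotypes did not overlap, although CD1d-KO 4 at 842 lay close to WT 4 at 861. The means were 757 ± 64.8 and 907.5 ± 61.0 (SD, n = 4), and the log2 fold change was -0.26 with a 95% interval of -0.44 to -0.09 (DESeq2, unadjusted p = 0.0033, adjusted p = 0.069). The estimate was below 0 in all 16 alternative settings, from -0.32 to -0.19, and passed the threshold in 1, without CD1d-KO 4 (DESeq2, -0.32, adjusted p = 0.0218). In the others the adjusted p reached 0.129 with edgeR, 0.465 without the libraries with Y-linked counts (DESeq2) and 0.834 with the stomach covariate (DESeq2). Smad6, which acts mainly on the BMP branch (chr9:63953076-64022059, minus strand), had 323, 343, 420 and 414 normalised counts in CD1d-KO and 335, 407, 476 and 476 in WT. Its genotypes overlapped, and its log2 fold change was -0.17 with a 95% interval of -0.45 to 0.10 (DESeq2, adjusted p = 0.631). For Smad6 the estimate was -0.02 without the libraries with Y-linked counts (DESeq2, adjusted p = 0.984) and 0.27 with the stomach covariate (DESeq2, adjusted p = 0.817).

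ID proteins are helix-loop-helix proteins without a DNA-binding region that hold E proteins away from DNA, and their genes are the standard readout of BMP activity. The 250 bases upstream of the start are shown for Id3, the gene that was called, and for Id2. Among the Id genes, Id2 had the smallest absolute estimate. Both windows are from RefSeq on GRCm38.p6 (mm10), 5′ to 3′ along the gene's strand. Capitals mark letters of motifs known to be bound by SMADs: GTCTG and its other strand CAGAC in Id3 (chr4:136143572-136143821, plus strand), and the GC-rich GGCGCC, which reads the same on both strands, in Id2 (chr12:25096093-25096342, minus strand).
Id3: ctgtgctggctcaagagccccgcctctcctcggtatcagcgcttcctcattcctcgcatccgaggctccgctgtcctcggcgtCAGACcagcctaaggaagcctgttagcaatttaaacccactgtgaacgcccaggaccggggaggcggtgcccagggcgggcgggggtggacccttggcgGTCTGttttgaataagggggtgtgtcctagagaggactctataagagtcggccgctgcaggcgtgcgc
Id2: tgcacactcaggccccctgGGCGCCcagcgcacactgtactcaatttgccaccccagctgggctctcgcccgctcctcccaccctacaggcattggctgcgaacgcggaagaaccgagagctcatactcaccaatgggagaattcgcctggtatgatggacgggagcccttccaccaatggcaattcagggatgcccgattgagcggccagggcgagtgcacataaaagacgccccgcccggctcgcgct
A match is a description of letters and not a binding site. Within these windows, 7 of the 10 genes had an entry, and both strands were searched. The GTCTG motif was found in 1 of the 7 (Id3, with first bases at -167 and -68 from the start) and in 42.2% of the 32851 promoter windows of the same length. GGCGCC was found in 4 of the 7 and in 9.59% of all windows, with its first base at -231 from the start for Id2, -198 for Bmpr1a, -105 for Bmpr2 and -51 for Smad9. Smad6 and Klf4 held neither motif. No window of the 7 held both. The windows that held GGCGCC, a motif made of G and C alone, had a GC content of 62.8% (Id2), 64.0% (Bmpr2), 73.2% (Smad9) and 78.8% (Bmpr1a). The others had 62.8% (Id3), 66.8% (Smad6) and 74.0% (Klf4), and the median over all windows was 52.4%, so all 7 lay above it and their motif counts were not adjusted for GC.

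Id3 (chr4:136143822-136145392, plus strand) fell in CD1d-KO IECs. The CD1d-KO samples had 1253, 1432, 1565 and 1459 normalised counts, the WT samples 1751, 1651, 1703 and 1840. Every CD1d-KO sample was below every WT sample, with CD1d-KO 1 the lowest and WT 4 the highest. The means were 1428 ± 129 in CD1d-KO and 1736 ± 80.4 in WT (SD, n = 4). The log2 fold change was -0.28 ± 0.081 (SE), or 0.822 times the WT level with a 95% interval of 0.736 to 0.918 (DESeq2, adjusted p = 0.0195). The estimate was below 0 in all 16 alternative settings, between -0.33 and -0.20, and the call was made in 8 of them. It was lost with edgeR (adjusted p = 0.0788), without the 2 libraries with Y-linked counts (DESeq2, log2 fold change -0.20, adjusted p = 0.374) and when the stomach score was added as a covariate (DESeq2, -0.22, adjusted p = 0.755). It was also lost without CD1d-KO 1 (DESeq2, adjusted p = 0.0896), CD1d-KO 2 (0.094), WT 1 (0.0765), WT 3 (0.0565) or WT 4 (0.0963). The sums of leukocyte markers and of stomach genes were separated between the genotypes as Id3 was (870 to 1068 against 1108 to 2210, and 956 to 1783 against 2723 to 16780), and the part of the leukocyte markers in the result was not tested.

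Id1 and Id2 were not called. Id1 (chr2:152736251-152737410, plus strand) had 1430, 1787, 1584 and 1648 normalised counts in CD1d-KO and 1967, 1792, 1617 and 1828 in WT. CD1d-KO 1 and 3 were below every WT sample, while WT 3 lay within the CD1d-KO range. The log2 fold change was -0.16 with a 95% interval of -0.34 to 0.02 (DESeq2, unadjusted p = 0.0732, adjusted p = 0.398), an interval that holds the Id3 estimate of -0.28. Id2 (chr12:25093799-25096092, minus strand) had 872, 1083, 1072 and 1050 normalised counts in CD1d-KO and 1022, 720, 1041 and 1205 in WT. Its WT samples 2 and 4 were the lowest and the highest of all 8. For Id2 the log2 fold change was 0.03 with a 95% interval of -0.24 to 0.30 (DESeq2, adjusted p = 0.963). Whether the fold change of Id3 differs from those of Id1 and Id2 was not tested.

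Klf4, a zinc-finger factor of differentiated and goblet cells that responds to BMP (chr4:55527137-55532475, minus strand), had 2853, 2562, 2742 and 3208 normalised counts in CD1d-KO and 3262, 3181, 3231 and 2471 in WT. Of the WT samples, 3 lay near the top and WT 4 was the lowest of all 8, so the genotypes overlapped. The log2 fold change was -0.10 with a 95% interval of -0.30 to 0.11 (DESeq2, adjusted p = 0.759). Id2 and Klf4 each share at least 200 bases at 90% identity or more with a processed pseudogene. The stretches were 380 bases at 91.8% for Id2 and 242 bases at 91.3% for Klf4, so reads could have aligned to the copies. Neither pseudogene was among the genes of the deposited table, and how far such reads affected the counts of Id2 and Klf4 was not tested. In addition, Bmpr1a (402 bases), Bmpr2 (217), Id1 (204) and Id2 (466 and 796) share identical stretches with lncRNA genes annotated on the opposite strand of the same locus. Counting did not use strand, so reads of these lncRNAs and of the 4 genes cannot be told apart.

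**Figure D3:**
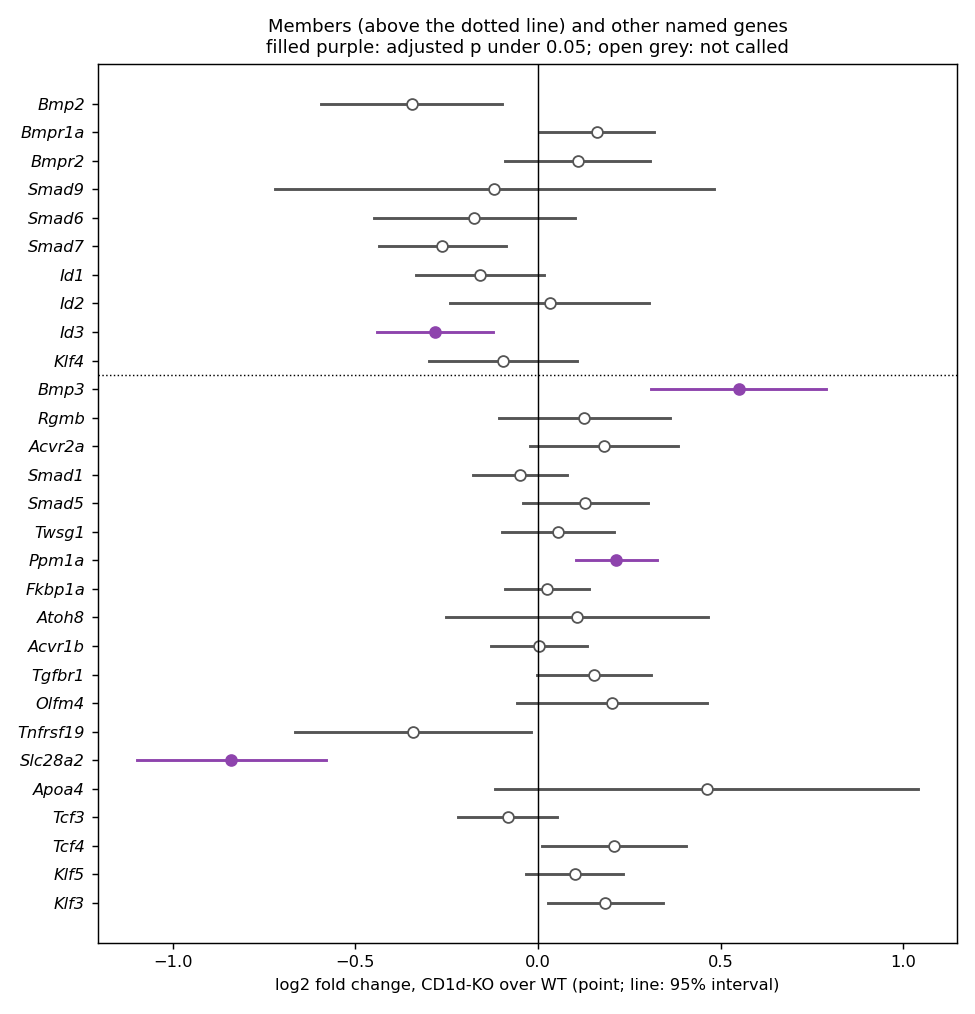
Log2 fold change of CD1d-KO over WT (horizontal axis, point) with its 95% interval (line) for the 10 genes above the dotted line and for named genes of the surrounding pathway below it. Filled purple marks an adjusted p under 0.05 by DESeq2: Id3 at -0.28, Bmp3 at 0.55, Ppm1a at 0.21 and Slc28a2 at -0.84. Chrd and Zeb2, with few counts, are not drawn.

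The wider BMP branch was described with 6 lists of 54 genes in all, of which 33 were tested. Of these, 2 rose in CD1d-KO, against 1.65% of all genes called higher, and 0 fell, while 5 had an unadjusted p under 0.05 against 15.3% of all genes. The median log2 fold change of the 33 was 0.05, with 23 estimates above 0 and 10 below. Over all genes tested, 7766 estimates were above 0 and 7680 below. Bmp3 and Ppm1a were also the only genes of the 33 whose genotypes did not overlap, against 9.61% of all genes in either direction.

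Among 12 further ligands, 5 were tested and Bmp3 was called. Bmp3 encodes a ligand that is known to oppose other BMPs rather than activate SMADs (chr5:98854415-98884053, plus strand). It had 3498, 3654, 4177 and 4401 normalised counts in CD1d-KO and 2030, 2782, 2908 and 3031 in WT. Every CD1d-KO sample was above every WT sample, and WT 1 was the lowest. The means were 3932 ± 426 and 2688 ± 450 (SD, n = 4), a log2 fold change of 0.55 ± 0.12 (SE) and 1.46 times the WT level, with a 95% interval of 1.24 to 1.73 (DESeq2, adjusted p = 0.000659). Per length Bmp3 was the most abundant ligand, at 51.8 TPM in CD1d-KO and 35.5 TPM in WT, above Bmp2 at 7.26 and 9.20 TPM. Bmp3 was called in all 16 alternative settings, with adjusted p from 3.91e-10 (DESeq2, replicate number as a block) to 0.0444 (edgeR), and its log2 fold change was 0.96 when the stomach score was a covariate and 0.68 without the libraries with Y-linked counts (DESeq2, adjusted p = 9.15e-05). The leukocyte sums were separated between the genotypes as Bmp3 was, in the opposite direction, and their part in the Bmp3, Ppm1a and Slc28a2 results was not tested. Bmp7, chosen after its values were seen, had a log2 fold change of 0.27 with a 95% interval of 0.03 to 0.50 (DESeq2, unadjusted p = 0.0248, adjusted p = 0.227). Bmp4, a ligand made largely by intestinal stroma and also chosen after its values were seen, did not exceed 2.86 normalised counts in any sample, and Bmp5 was at 0 in all 8.

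Neither the other receptors nor the other SMADs of the branch included a called gene. Of 7 tested receptors and co-receptors, 0 passed and 0 had an unadjusted p under 0.05 (DESeq2). The most abundant per length was Rgmb, a co-receptor, with a log2 fold change of 0.13 (95% interval -0.11 to 0.36, DESeq2, adjusted p = 0.706). The one with the smallest p was Acvr2a, a type II receptor, at 0.18 (-0.02 to 0.39, DESeq2, adjusted p = 0.418). The receptor-activated Smad1 was at -0.05 (DESeq2, adjusted p = 0.825) and Smad5 at 0.13 (DESeq2, adjusted p = 0.530), and their common partner Smad4, chosen after its values were seen, was at 0.08 (DESeq2, adjusted p = 0.719). Per length Smad1 stood at 67.5 TPM in WT and Smad5 at 20.7 TPM, so both far exceeded Smad9 at 0.648 TPM.

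Of 12 secreted antagonists, which bind BMPs outside the cell, 5 were tested and 0 were called, with 0 at an unadjusted p under 0.05 (DESeq2). Nog, Grem1 and Sostdc1 were at 0 counts in all 8 samples. Twsg1, the most abundant, had a log2 fold change of 0.05 (95% interval -0.10 to 0.21, DESeq2, adjusted p = 0.844), and Chrd, which did not exceed 8.56 normalised counts, was at -0.75 (DESeq2, adjusted p = 0.710).

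Of 10 regulators within the cell or at its membrane, all tested, 1 rose. Ppm1a encodes a phosphatase known to remove phosphate from SMADs (chr12:72761211-72794940, plus strand). The CD1d-KO samples had 4079, 4335, 4434 and 4168 normalised counts, the WT samples 3469, 3801, 3717 and 3685. The genotypes did not overlap, and the samples of each lay close together. The log2 fold change was 0.21 ± 0.057 (SE), or 1.16 times the WT level with a 95% interval of 1.07 to 1.25 (DESeq2, adjusted p = 0.0083). The call was kept in 11 of 16 alternative settings and was lost with edgeR (adjusted p = 0.076), without the libraries with Y-linked counts (DESeq2, 0.115), with the stomach covariate (DESeq2, 0.617), without CD1d-KO 2 (DESeq2, 0.093) and without WT 1 (DESeq2, 0.0725). Over all 16 the log2 fold change stayed between 0.19 and 0.24. Fkbp1a, which encodes a protein that holds type I receptors inactive and was the most abundant of the list, was at 0.03 (95% interval -0.09 to 0.14, DESeq2, adjusted p = 0.922). The pseudoreceptor gene Bambi (log2 fold change 0.41, DESeq2, unadjusted p = 0.0239, adjusted p = 0.224) and the ubiquitin ligase gene Smurf2 (0.15, DESeq2, unadjusted p = 0.0409, adjusted p = 0.296) were chosen after their values were seen and were not called.

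Among 8 other genes that respond to BMP in various tissues, 3 were tested and 0 were called, with 0 at an unadjusted p under 0.05 (DESeq2). Atoh8 was at a log2 fold change of 0.11 (95% interval -0.25 to 0.47, DESeq2, adjusted p = 0.876), and Id4, the remaining Id gene, chosen after its values were seen, was at 0.17 (-0.26 to 0.60, DESeq2, adjusted p = 0.822). Zeb2 received no adjusted p: it had no counts in CD1d-KO and at most 5.89 normalised counts in WT. In the TGF-beta and activin branch, which signals through SMAD2 and SMAD3, 10 of 12 genes were tested and 0 were called, with 0 at an unadjusted p under 0.05 (DESeq2). Its most abundant gene Acvr1b was at 0.00 (95% interval -0.13 to 0.14, DESeq2, adjusted p = 0.996), and Tgfbr1 was at 0.15 (DESeq2, adjusted p = 0.351), with a 95% interval of 0.997 to 1.24 times the WT level.

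Genes around the readouts of the pathway were described in the same way. Of the 3 E proteins that ID proteins bind, DESeq2 called 0, with an unadjusted p under 0.05 for 1: Tcf4 was at a log2 fold change of 0.21 (95% interval 0.01 to 0.41, DESeq2, adjusted p = 0.287), and Tcf3 at -0.08 (DESeq2, adjusted p = 0.642). Of 5 other Kruppel-like factors, DESeq2 called 0, with an unadjusted p under 0.05 for 1: Klf3 was at 0.18 (DESeq2, adjusted p = 0.216) and passed the threshold without CD1d-KO 3 (0.24, DESeq2, adjusted p = 0.0268), and Klf5 was at 0.10 (DESeq2, adjusted p = 0.526). Of 12 stem cell genes, whose expression BMP is known to restrain in crypts, DESeq2 called 0, with an unadjusted p under 0.05 for 1. Estimates were above 0 for 10 of them, with a median of 0.07, against 7766 above 0 among the 15446 genes tested. Olfm4, the most abundant, was at 0.20 (95% interval -0.06 to 0.46, DESeq2, adjusted p = 0.509), and Tnfrsf19 was at -0.34 (-0.67 to -0.02, DESeq2, adjusted p = 0.283). Olfm4 had 206040 and 195450 normalised counts in CD1d-KO 1 and 2, the libraries with Y-linked counts, and 155880 and 139600 in CD1d-KO 3 and 4. Without CD1d-KO 1 and 2, Olfm4 was at -0.03 (DESeq2, adjusted p = 0.968) and Tnfrsf19 at -0.52 (DESeq2, adjusted p = 0.133). The rest of the list was described after its values were seen. Lgr5 had 3612, 3296, 2472 and 2593 normalised counts in CD1d-KO and 3373, 2339, 2234 and 2690 in WT. Smoc2, Axin2, Sox9, Ephb2, Ephb3, Rnf43 and Tnfrsf19 were likewise higher in both CD1d-KO 1 and 2 than in CD1d-KO 3 and 4. Ascl2, Msi1 and Znrf3 were not. The part of CD1d-KO 1 and 2 in the estimates above 0 was not tested for the list. Of 8 villus tip genes, 1 fell, against 2.38% of all genes called lower. An unadjusted p under 0.05 was reached by 2 of the 8 (DESeq2), against 15.3% of all genes. The median log2 fold change of the 8 was -0.02. Slc28a2, a concentrative nucleoside transporter gene, had 394, 376, 341 and 349 normalised counts in CD1d-KO and 838, 586, 614 and 575 in WT. The genotypes did not overlap, with WT 1 far above the rest, and the log2 fold change was -0.84 ± 0.13 (SE, DESeq2, adjusted p = 8.04e-08). It was called in all 16 alternative settings, at -0.92 without the libraries with Y-linked counts (DESeq2, adjusted p = 7.58e-06). With edgeR, the calls in all the pathway lists were Bmp3 and Slc28a2. Apoa4, an apolipoprotein gene and the most abundant of the tip list, was at 0.46 (95% interval -0.12 to 1.04, DESeq2, adjusted p = 0.494).

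**Figure D4:**
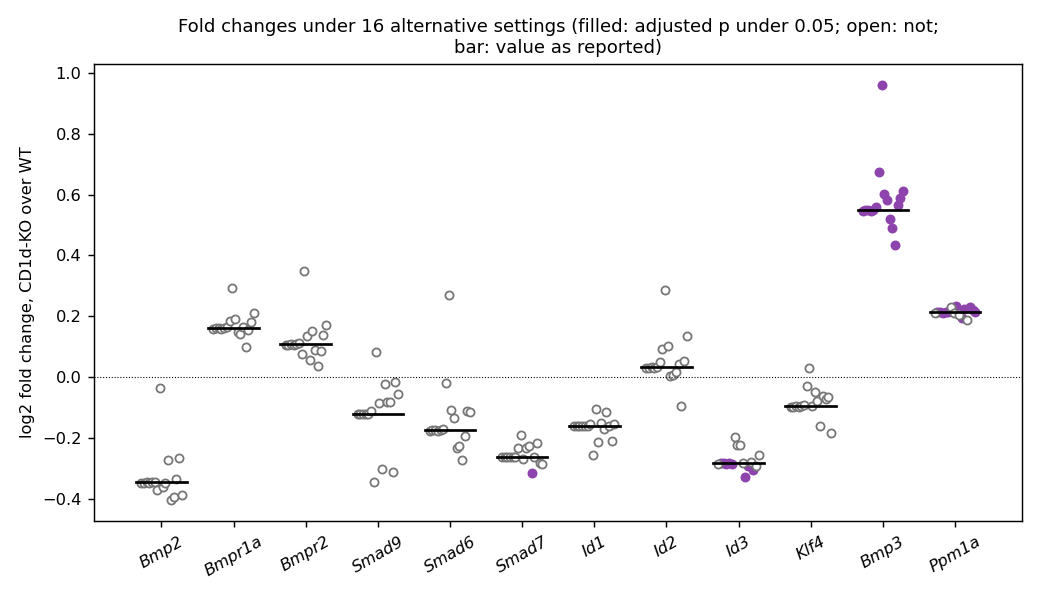
Log2 fold change of CD1d-KO over WT (vertical axis) for the 10 genes, Bmp3 and Ppm1a under 16 alternative settings (points, filled where the adjusted p was under 0.05), with a bar at the value as reported. Bmp3 is filled in all 16, Ppm1a in 11, Id3 in 8 and Smad7 in 1, and none of the other 8 genes is filled in any.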

How the data were processed

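Bulk RNA-seq of sorted IECs was analysed from 4 CD1d-KO and 4 WT samples. The labels gave the genotype and the replicate number. The file deposited by the authors holds unnormalized fragment counts, 1 column for each sample, beside each gene's summed exon length. Its header names featureCounts 1.6.4, run on read pairs over exons, with primary alignments, without strand, leaving out pairs that overlapped several genes. The header names an mm10 annotation and the methods name HISAT2 alignment to GRCm39. Coordinates are those of the table (mm10). Unused per-sample columns numbered 0. The labels do not say that samples came from separate animals. The methods name 4 mice per genotype, and p-values weigh the difference of the genotypes against the spread between these samples. That spread also holds the difference of sex within CD1d-KO and any difference between experiments, for which the fit had no term.

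Genotypes were compared by DESeq2 1.42.0 (R 4.3.3), the tool named in the methods, on all genes with genotype as the only term. P-values were adjusted over 15446 genes (Benjamini-Hochberg) and called under 0.05. Independent filtering at a mean of 2.41 normalised counts left 3638 genes, and Cook's rule 4 genes, without an adjusted p. Intervals are 95% (estimate plus or minus 1.96 SE). TPM used the deposited lengths. Within a genotype, counts of any pair of libraries differed by more than sampling noise (chi-square per degree of freedom 9.73 to 37.2), so no library was a copy of another. No molecular identifiers were used, so copies of the same molecule could not be told apart from separate molecules. The tests add a spread between samples to the counting noise of fragments.

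The 10 genes and all lists (BMP ligands, receptors, SMADs, antagonists, regulators and responsive genes, the TGF-beta branch, ID partners, Kruppel-like factors, stem cell and villus tip genes, and the marker lists) were chosen with earlier results of these data known. Named genes were the 10, in each pathway list the called genes and the most abundant, in lists with no call also the smallest p, in marker lists at most those called, and Cd1d1.

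Alternatives were edgeR 4.0.16 (quasi-likelihood, TMM), TMM factors in DESeq2, size factors without the 50 most abundant genes, a filter of 10 counts in at least 4 samples, no independent filtering, a replicate block, leaving out the 2 libraries with Y-linked counts, a stomach gene score as a covariate, and leaving out each of 8 samples. Promoter windows of 250 bases came from RefSeq on GRCm38.p6. Transcript copies were searched at 90% identity or more over at least 200 bases.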

Additional observations from a re-analysis of the deposited data

Results flagged for a closer look

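The highest or the lowest library of a group of 4 stood apart from the other 3 by more than Dixon's 95% critical value in 6 of 61 groups examined, and chance gives about 1 in 20. Among the 10 genes these were Id2 in CD1d-KO, where CD1d-KO 1 was at 871.7 normalised counts, below the other CD1d-KO samples, and Klf4 in WT, where WT 4 was at 2471, below the other WT samples. In the surrounding lists, CD1d-KO 3 stood apart for Fkbp1a at 5242, WT 1 for Zeb2 at 5.89 and for Slc28a2 at 838.4, and CD1d-KO 4 for Tcf3 at 3108 normalised counts. Leaving out WT 1, Slc28a2 was still called, at a log2 fold change of -0.70 (DESeq2, adjusted p = 9.48e-09).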

How the results depend on the processing

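The number of genes called was 622 as reported and 228 with edgeR, 372 without the libraries with Y-linked counts, 100 with the stomach covariate and 323 to 646 when each sample was left out. Of the 10 genes, 1 was called as reported, 0 with edgeR (3 at an unadjusted p under 0.05), 0 without the Y-linked libraries (2) and 0 with the stomach covariate (0), and 0 to 2 when each sample was left out (0 without CD1d-KO 1, CD1d-KO 2, WT 1, WT 3 or WT 4, and Id3 with Smad7 without CD1d-KO 4). Of the genes in the pathway lists, 3 were called as reported (Bmp3, Ppm1a and Slc28a2) and 2 to 5 when each sample was left out, with Klf3 and Acvr1c added without CD1d-KO 3 and Tgfbr2 added without CD1d-KO 4. The stomach score did not overlap between the genotypes (-3.23 to 0.27 in CD1d-KO and 0.99 to 3.99 in WT), so that fit could hardly separate score from genotype.

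Estimates that changed sign belonged to genes that were not called. With the stomach covariate these were Smad6 (0.27), Smad9 (0.0813), Klf4 (0.0308), Rgmb (-0.28), Smad1 (0.0497), Atoh8 (-0.24), Acvr1b (-0.15), Olfm4 (-0.36) and Tcf4 (-0.0675). Without the Y-linked libraries they were Rgmb (-0.0486), Atoh8 (-0.0869), Acvr1b (-0.0958) and Olfm4 (-0.0345). With single samples left out they were Id2 (-0.0955, without WT 2, to 0.134), Twsg1 (-0.00333, without WT 1, to 0.0971), Fkbp1a (-0.00994, without CD1d-KO 3, to 0.0432) and Acvr1b (-0.03226 to 0.03485 over the 8 fits). Acvr1b was at -0.00036 with edgeR. The cause was not tested.

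With the replicate number as a block, 569 genes were called, 434 of them shared with the 622, Id3 kept its call (DESeq2, adjusted p = 0.0326), the calls in the pathway lists were the same 3, and Acvr1b was at -0.00065. Samples of the same number correlated at -0.0863 to 0.324, and 3 of 8 correlated best with their own number, so the numbers were not treated as pairs. Smad9 had the fewest counts of the 10 genes, 23 to 55 per library.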
